A study of Danio rerio with 6 samples.

Results

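Cilia are slender microtubule-based projections of the cell surface, and the genes described here belong to families that build, load or move them. They were taken from the array by gene name: a target sequence was included when its symbol, or the symbol of its homologue where the array annotation gave none, belonged to the ift, bbs, nphp, rpgr, mks, dnah, dnai, dnal, tekt, rsph, spag, ttc, rfx, foxj1, arl6, arl13, lrrc6, kif17, tctex, tmem67 or cc2d2a families. This gave 76 of the 38489 target sequences, under 42 names, of which 45 were found by their own symbol and 31 by the symbol of a homologue. The brains came from male zebrafish of the AB strain, the lead-exposed group from embryos treated with 100 ppb lead acetate and the control group from embryos held at 0 ppb, in both cases from less than 2 hours to 72 hours after fertilization. All fish then grew in water without lead at 28 °C until 12 months of age. Each of the 6 one-colour arrays measured the RNA of 1 brain, 3 lead-exposed and 3 control, and the comparison asks whether cilia genes of the adult brain differ long after exposure ended.

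A cilium is assembled by intraflagellar transport, in which trains of IFT proteins are carried along the axoneme by motors. The BBSome, a coat-like complex recruited to membranes by the GTPase arl6, carries membrane proteins in and out, and a transition zone at the base acts as the gate. Motile cilia, such as those of the ependymal cells that line brain ventricles, also carry dynein arms, radial spokes and a central pair, and depend on foxj1 and on RFX transcription factors. Most neurons and glia have a single non-motile primary cilium, which serves Hedgehog signalling, and the outer segment of a photoreceptor is a modified cilium.

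No cilia target differed between lead-exposed and control brains at an adjusted p under 0.05 in limma, and neither did any of the 38489 targets (0% called). The smallest adjusted p among the cilia targets was 0.573. At an unadjusted p under 0.05 there were 2 cilia targets, or 2.63%, where 7.19% of all targets were called: DNAI1, a dynein intermediate chain, with lower values, and TTC4, a co-chaperone with tetratricopeptide repeats, with higher values. The called share of all targets was 4.19% in the higher direction and 3.00% in the lower direction. In all, 32 cilia targets had higher and 44 had lower values in lead-exposed brains, and the median difference was −0.018 on the log2 scale, against −0.004 over all targets. The interquartile range of the cilia differences was −0.15 to 0.08, and the full range ran from −0.77 to 0.59.

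The size of the differences was bounded more closely for some targets than for others. The 95% interval of the difference stayed within 1.5-fold in either direction for 39 of the 76 cilia targets and within 2-fold for 68. Over all 38489 targets the numbers were 18101 and 32898. A target was taken as above background on an array where its value exceeded the 95th percentile of 27114 random-sequence probes on that array, a level of 10.41 to 10.91 on the log2 scale. By that measure 36 cilia targets, or 47.4%, were above background on all 6 arrays, against 47.5% of all targets, and 29 were above it on none. The interval stayed within 1.5-fold for 24 of the 36 and within 2-fold for all 36. It did so for 13 and 25 of the 29, where it bounds normalized intensity and not a fold of expression. None of the 36 reached an unadjusted p under 0.05 (3.03% of all such targets did), and both targets that did were among the 29 (6.90% of these, against 11.3% of all such targets). Where neither group was above background the values below are log2 differences of normalized intensity and no fold is given.

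**Figure D1:**
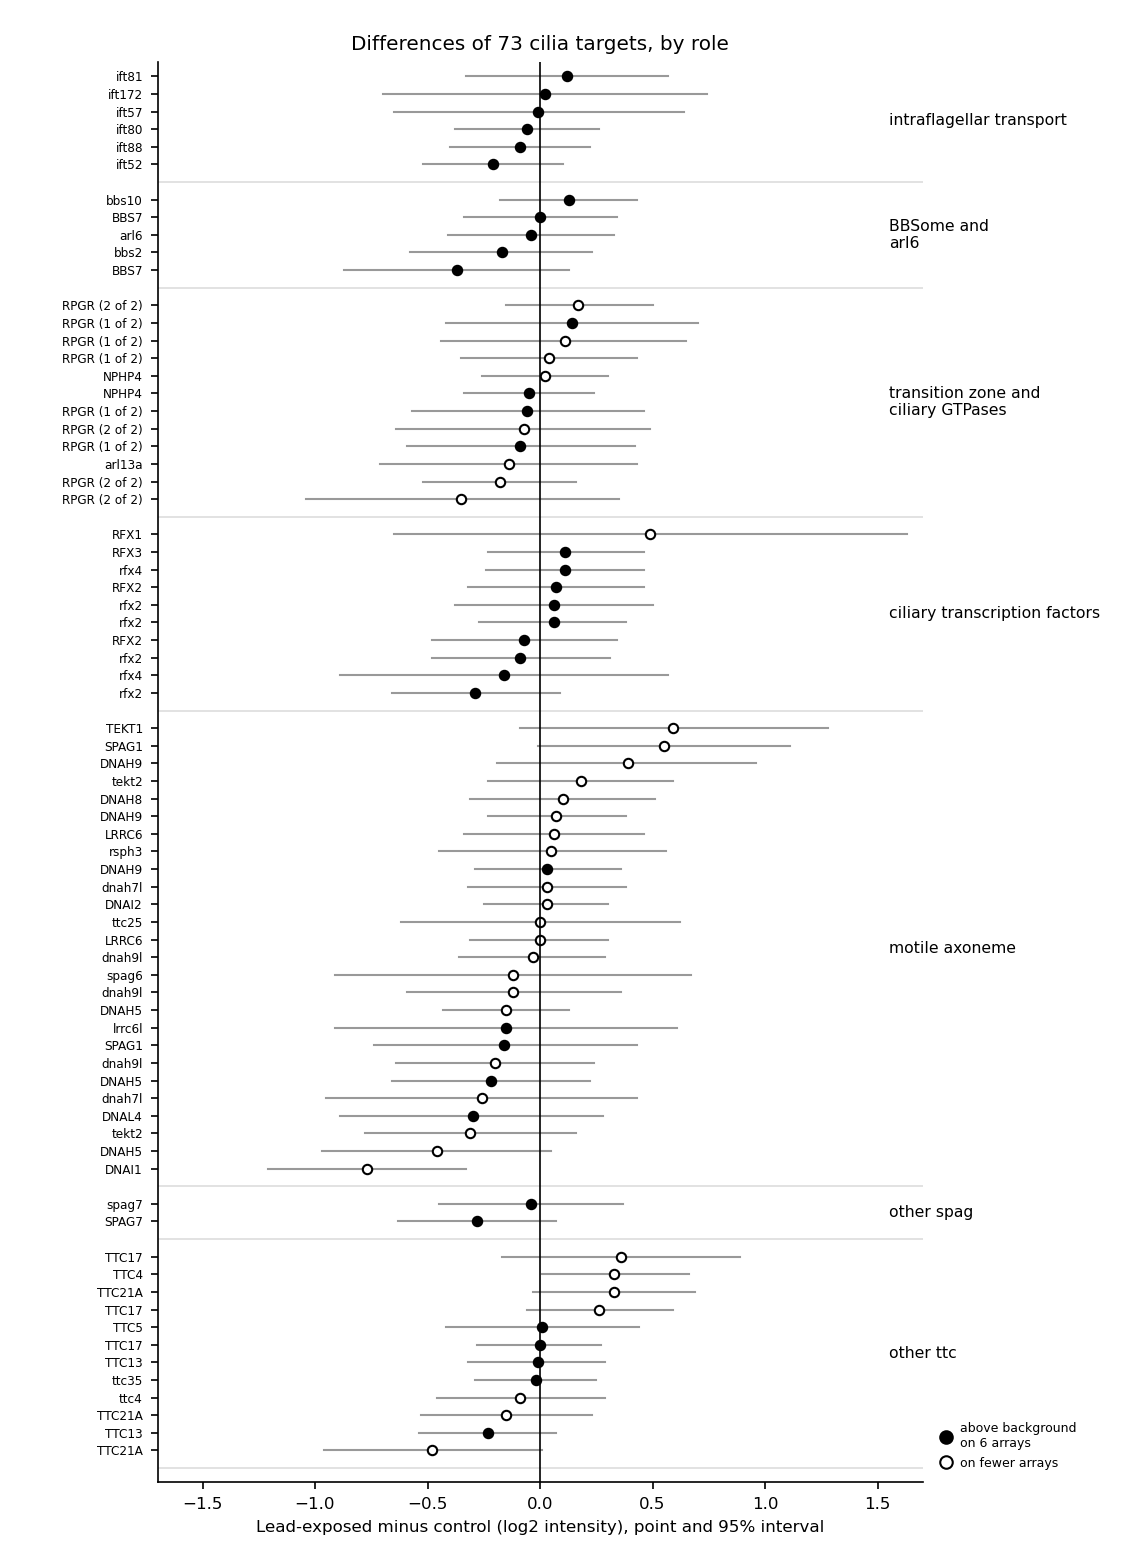
Difference of 73 cilia targets, lead-exposed minus control, in log2 intensity, with its 95% interval from limma, ordered by role. Filled points were above background on all 6 arrays. The interval of DNAI1, from −1.21 to −0.33, lies below 0, that of 1 TTC4 target, from 0.01 to 0.66, lies above it, and the others cross it.

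The intraflagellar transport genes on the array under this rule were all subunits of the anterograde complex IFT-B: ift52, ift81 and ift88 of its core, and ift57, ift80 and ift172 of its periphery. Each had 1 target, each was above background on all 6 arrays, and none was called at an unadjusted p under 0.05. Of the 6, 2 had higher and 4 had lower values in lead-exposed brains, with a median difference of −0.035.

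The target of ift88, whose loss in zebrafish removes cilia, had log2 values of 13.34, 13.10 and 13.20 in lead-exposed brains 1 to 3, against 13.22, 13.28 and 13.42 in control brains 1 to 3. The groups overlapped, with a difference of −0.09 (SE 0.13) and a 95% interval from −0.40 to 0.22. For ift52 the values were 11.45, 11.67 and 11.35 in lead-exposed brains, against 11.69, 11.71 and 11.69 in control brains. It was the only IFT gene of the 6 whose groups did not overlap, with a difference of −0.21 (SE 0.13, adjusted p = 0.776 in limma), and lead-exposed brain 2 was within 0.02 of the controls.

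The values of ift57 were 13.59, 12.63 and 13.34 in lead-exposed brains, against 12.91, 13.44 and 13.24 in control brains. Those of ift172 were 12.53, 11.52 and 12.16 in lead-exposed brains, against 11.81, 11.86 and 12.50 in control brains. In both genes the highest and the lowest of the 6 values belonged to lead-exposed fish, brains 1 and 2, and the mean differences were −0.01 (SE 0.27) and 0.02 (SE 0.30). The 2 remaining differences were 0.12 (SE 0.19) for ift81 and −0.06 (SE 0.14) for ift80. Over the group, 4 of the 6 IFT targets were highest in lead-exposed brain 1, and 3 were lowest in lead-exposed brain 2.

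**Figure D2:**
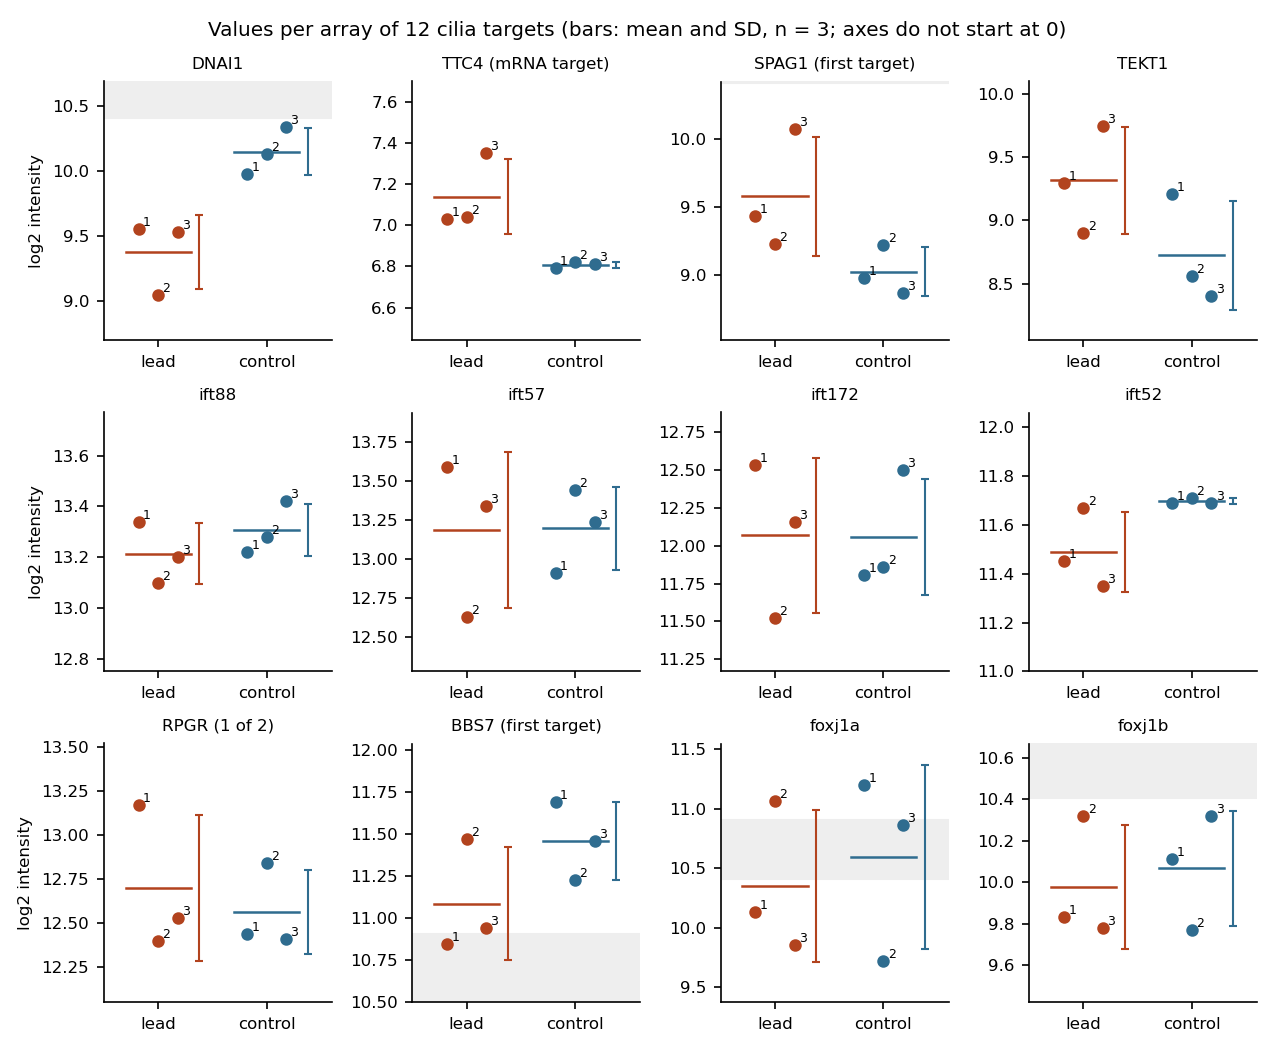
Log2 intensity of 12 cilia targets on each array, lead-exposed brains left and control brains right, numbered by replicate, with the mean and the SD (n = 3). Grey bands span the background levels of the 6 arrays, and only DNAI1, TTC4, SPAG1 and ift52 of these panels show groups that do not overlap.

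Of the BBSome and its recruiting GTPase, the array held under this rule bbs2 and BBS7, both subunits, bbs10, a chaperonin-like protein that helps to assemble the complex, and arl6. These 5 targets were above background on all 6 arrays, none was called and 1 had higher and 4 had lower values. The first BBS7 target had values of 10.85, 11.47 and 10.94 in lead-exposed brains, against 11.69, 11.23 and 11.46 in control brains, a difference of −0.37 (SE 0.21) with a 95% interval from −0.87 to 0.13. Its groups overlapped, because lead-exposed brain 2 was above control brain 2. The second BBS7 target, which overlaps the first on chromosome 14 (52924211 to 52929205 and 52924133 to 52929205 in the coordinates of the array files, which use Zv7 names), differed by 0.00 (SE 0.14). The differences were −0.17 (SE 0.17) for bbs2, 0.13 (SE 0.13) for bbs10 and −0.04 (SE 0.15) for arl6.

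The transition zone and ciliary GTPase genes comprised 15 targets under 5 names, 7 with higher and 8 with lower values, and none was called. NPHP4 is a nephrocystin of the transition zone, RPGR is a protein of the same region whose loss causes retinal degeneration in humans, and arl13a belongs to the Arl13 family of ciliary GTPases. All 5 targets of the locus named RPGR (1 of 2) had their highest value in lead-exposed brain 1. The brightest of them had 13.17, 12.40 and 12.53 in lead-exposed brains, against 12.44, 12.84 and 12.41 in control brains. These targets lie on the same stretch of chromosome 11, from 27260870 in the array files, so they are not independent, and their mean differences were between −0.09 and 0.14. The 4 targets of RPGR (2 of 2) differed by −0.35 (SE 0.29), −0.18 (SE 0.14), −0.07 (SE 0.24) and 0.17 (SE 0.14), the last with groups that did not overlap. The NPHP4 target differed by 0.02 (SE 0.12), its reverse-strand partner by −0.05 (SE 0.12) and arl13a by −0.14 (SE 0.24).

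The RFX genes, which encode winged-helix factors that switch on ciliary genes, had 10 targets, of which 9 were above background on all 6 arrays. None was called, 6 had higher and 4 had lower values, and the median difference was 0.061. The 6 targets named rfx2 lay between −0.29 and 0.07. The one at −0.29 (SE 0.16) had 11.43, 11.66 and 11.38 in lead-exposed brains, against 11.86, 11.53 and 11.93 in control brains, and the groups overlapped through control brain 2. The 2 targets of rfx4, the RFX gene best known from the brain, differed by −0.16 (SE 0.31) and 0.11 (SE 0.15). In the first of them 1 probe read 6.14 in lead-exposed brain 3 and between 12.20 and 12.83 in the other brains. A target named RFX3 differed by 0.11 (SE 0.15), and one named RFX1, below background on all 6 arrays, by 0.49 (SE 0.48). Control brain 2 had the lowest value in 5 of the 10 RFX targets. These include several targets named rfx2, so the 5 are not independent, and the RFX1 target below background.

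**Figure D3:**
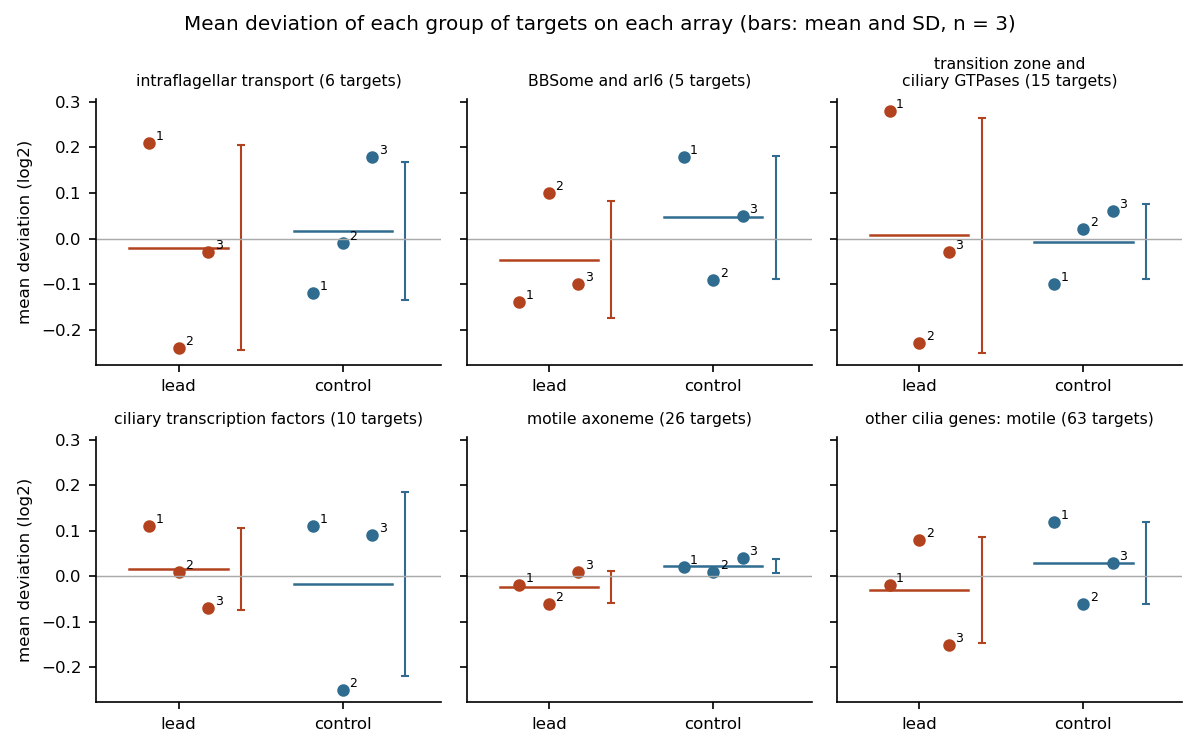
Mean deviation of each group of cilia targets from the 6-array mean, in log2 units, on each array, lead-exposed left and control right, with the mean and the SD of each group (n = 3). The means of the IFT and transition zone targets spread most among lead-exposed fish, from 0.21 and 0.28 in brain 1 to −0.24 and −0.23 in brain 2.

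Averaged over targets, the deviation of the IFT genes from the 6-array mean was 0.21, −0.24 and −0.03 in lead-exposed brains 1 to 3, against −0.12, −0.01 and 0.18 in control brains 1 to 3. That of the transition zone genes was 0.28, −0.23 and −0.03 in lead-exposed brains, against −0.10, 0.02 and 0.06 in control brains. In both groups of genes the exposed fish bracketed the controls. The transition zone average includes the 5 RPGR (1 of 2) targets of the same locus. The average of the motile axoneme genes varied less, with −0.02, −0.06 and 0.01 in lead-exposed brains, against 0.02, 0.01 and 0.04 in control brains. It covers 26 targets, 19 of them above background on no array. Taken singly, these targets did not vary less than the IFT targets, with a median residual SD of 0.253 against 0.186. In whole brains, fewer cells of a type and less RNA per cell cannot be told apart.

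Genes of the motile axoneme made up 26 targets under 16 names, 11 with higher and 15 with lower values in lead-exposed brains. Only 5 were above background on all 6 arrays and 19 were above it on none, so most of them were measured near the level of random sequences. One, DNAI1, was called at an unadjusted p under 0.05.

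DNAI1 encodes an intermediate chain of the outer dynein arm. Its target, on chromosome 21 from 14336720 to 14344612, had values of 9.56, 9.05 and 9.53 in lead-exposed brains, against 9.98, 10.13 and 10.34 in control brains. All 3 exposed brains were below all 3 controls, and no array was above background. The means were 9.38 ± 0.29 in lead-exposed and 10.15 ± 0.18 in control brains (SD, n = 3 each), a difference of −0.77 (SE 0.19, adjusted p = 0.573 in limma). The 3 probes of the target differed by −0.90, −0.58 and −0.30. In each of the 13 alternative settings that tested this target the unadjusted p was under 0.05, with the difference between −0.94 and −0.60, and the adjusted p was never under 0.252. A second intermediate chain gene on the array, dnai1.2, was above background on all 6 arrays and had 11.42, 11.54 and 11.07 in lead-exposed brains, against 11.76, 11.18 and 11.56 in control brains. Its groups overlapped and its difference was −0.16 (SE 0.20, 95% interval −0.64 to 0.32). The target of DNAI2, the partner intermediate chain, differed by 0.03 (SE 0.12). It was far below background, with means of 7.34 in lead-exposed and 7.32 in control brains, so it cannot show that DNAI2 was unchanged.

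The dynein heavy chains, which are the motors themselves, had differences in both directions. The 3 targets named DNAH5, an outer arm heavy chain, differed by −0.46 (SE 0.22, chromosome 24), −0.22 (SE 0.19, no position given) and −0.15 (SE 0.12, chromosome 16). The first of these had 9.13, 9.02 and 8.73 in lead-exposed brains, against 9.28, 9.15 and 9.84 in control brains, without overlap. The 3 targets of DNAH9, another outer arm heavy chain, differed by 0.39 (SE 0.24), 0.07 (SE 0.13) and 0.03 (SE 0.14), the second on the reverse strand. The 3 targets of dnah9l lay between −0.20 and −0.03, the 2 of dnah7l at −0.26 (SE 0.29) and 0.03 (SE 0.15), and the DNAH8 target at 0.10 (SE 0.17). The light chain gene DNAL4 differed by −0.30 (SE 0.25), with 12.14, 13.14 and 12.63 in lead-exposed brains, against 12.91, 12.96 and 12.95 in control brains. Lead-exposed brain 2 stood above the controls and the other exposed brains below them.

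SPAG1 and LRRC6 help to assemble dynein arms in the cytoplasm before they enter the cilium. The first SPAG1 target, on chromosome 16 from 52578377 to 52579169, had 9.43, 9.23 and 10.07 in lead-exposed brains, against 8.98, 9.22 and 8.87 in control brains. The groups did not overlap but came within 0.01, none of the values was above background, and the difference was 0.55 (SE 0.24, adjusted p = 0.700 in limma). The second SPAG1 target, on chromosome 19 from 26095258 to 26095710 and above background on all 6 arrays, differed by −0.16 (SE 0.25). The LRRC6 targets, both above background on no array, differed by 0.06 (SE 0.17) and 0.00 (SE 0.13). The target of lrrc6l, now named dnaaf11, was above background on all 6 arrays and differed by −0.15 (SE 0.32). Whether the LRRC6 and lrrc6l targets measure the same gene was not settled.

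Tektins run along the doublet microtubules of the axoneme. TEKT1, whose target also carries the homologue name PIB5PA, had 9.30, 8.90 and 9.75 in lead-exposed brains, against 9.21, 8.56 and 8.40 in control brains. The groups overlapped through control brain 1, no array was above background, and the difference was 0.59 (SE 0.29, 95% interval −0.09 to 1.28). The 2 tekt2 targets differed by −0.31 (SE 0.20) and 0.18 (SE 0.17). The radial spoke gene rsph3 differed by 0.05 (SE 0.21), the central pair gene spag6 by −0.12 (SE 0.33) and ttc25, now named odad4, a docking protein of the outer arm, by 0.00 (SE 0.26).

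The name rule also took in 14 targets that were not placed in the role groups above, which does not mean that they lack a ciliary role. These were SPAG7 and members of the tetratricopeptide repeat family such as TTC4, TTC5 (0.01, SE 0.18), TTC13, TTC17 and ttc35 (−0.02, SE 0.12), the last now named emc2 and part of a membrane insertion complex of the endoplasmic reticulum. The TTC4 target called in the comparison had 7.03, 7.04 and 7.35 in lead-exposed brains, against 6.79, 6.82 and 6.81 in control brains. The groups did not overlap and the 3 controls spanned 0.03, yet all values were far below background. The difference was 0.33 (SE 0.14, adjusted p = 0.682 in limma), and the unadjusted p was under 0.05 in 5 of the 13 alternative settings. A second ttc4 target differed by −0.09 (SE 0.16). TTC21A, a relative of the retrograde IFT subunit gene ttc21b, had 3 overlapping targets at −0.48 (SE 0.20), −0.15 (SE 0.16) and 0.33 (SE 0.15), all below background. The 3 TTC17 targets lay at 0.36 (SE 0.22), 0.26 (SE 0.14) and 0.00 (SE 0.11). The 2 SPAG7 targets lay at −0.28 (SE 0.15) and −0.04 (SE 0.17), and the 2 TTC13 targets at −0.23 (SE 0.13) and −0.01 (SE 0.13).

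**Figure D4:**
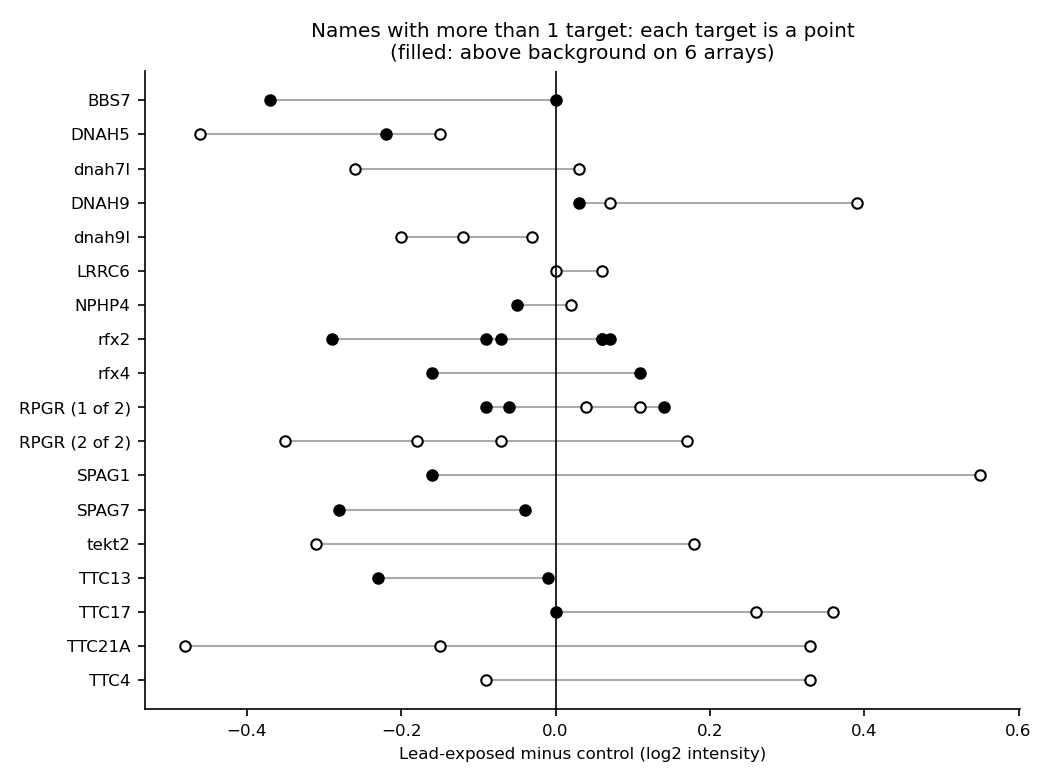
Differences, lead-exposed minus control in log2 intensity, of 18 names with more than 1 target, with 1 point for each target, filled where it was above background on all 6 arrays. For 12 of the 18 names the points lie on both sides of 0, before rounding.

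Targets of the same name gave a limited check within each array, because a shared name need not mean the same gene. The placed targets named DNAH5 lie on chromosomes 24 and 16, and those named SPAG1 on chromosomes 16 and 19. Of the 42 names, 19 had more than 1 target, and for 13 of these the targets differed in direction. The 6 names whose targets all had the same sign, before rounding, were BBS7, DNAH5, dnah9l, SPAG7 and TTC13, lower in lead-exposed brains, and DNAH9, higher. The second BBS7 target was at 0.00 (SE 0.14), and the DNAH9 targets include a reverse-strand target. Within targets, the probes all had the sign of their target for 22 of the 76. Groups that did not overlap were found for 10 cilia targets, or 13.2%, against 13.1% of all targets. Of the 10, 4 were higher (7.01% of all targets were) and 6 were lower (6.09% of all targets were) in lead-exposed brains. A difference in normalized intensity of at least 1.5-fold at an unadjusted p under 0.05 was reached by DNAI1 alone, or 1.32%, against 2.59% of all targets. DNAI1 was above background on no array, so this is not a fold of expression.

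The names of some cilia genes are recognised only through a current accession or synonym, which added 32 targets of the same families under 30 names. At an unadjusted p under 0.05, 1 of them was higher and 2 were lower, or 9.38% in all, against 7.19% of all targets (4.19% higher and 3.00% lower). The forkhead factor genes foxj1a and foxj1b, which set up motile cilia in zebrafish, did not separate by exposure. The values of foxj1a were 10.13, 11.07 and 9.85 in lead-exposed brains, against 11.20, 9.72 and 10.86 in control brains. Those of foxj1b were 9.83, 10.32 and 9.78 in lead-exposed brains, against 10.11, 9.77 and 10.32 in control brains. In both genes lead-exposed brain 2 lay with control brains 1 and 3, and control brain 2 had the lowest value, with mean differences of −0.24 (SE 0.46) and −0.09 (SE 0.21). The foxj1a target was above background on only 3 arrays and the foxj1b target on none. The confidence interval of the difference ran from −1.32 to 0.84 for foxj1a and from −0.59 to 0.41 for foxj1b. These values are therefore too wide or too dim to show that either gene was unchanged.

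The IFT-B gene ift20, whose protein also sits at the Golgi apparatus, had 10.5, 10.73 and 10.39 in lead-exposed brains, against 10.96, 11.03 and 10.90 in control brains. The groups did not overlap, and the difference was −0.42 (SE 0.14, adjusted p = 0.623 in limma). ttc32, a repeat protein gene above background on all 6 arrays, had 11.10, 11.47 and 11.16 in lead-exposed brains, against 11.63, 11.66 and 11.59 in control brains, a difference of −0.38 (SE 0.14, adjusted p = 0.663 in limma). Here too all 3 exposed brains were below the controls. The axonemal gene dnai7 had 8.92, 9.35 and 9.41 in lead-exposed brains, against 8.65, 8.36 and 8.76 in control brains, without overlap and below background on all arrays, a difference of 0.64 (SE 0.19, adjusted p = 0.607 in limma). It is the one gene of these families in the authors' deposited table of 180 altered probes, under the name CASC1, with a log2 ratio of 0.635 and a p-value of 0.0327.

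The other IFT genes found in this way lay close to 0, apart from ift74 at 0.24 (SE 0.16): ift22 differed by 0.11 (SE 0.16), ift27 by −0.06 (SE 0.15) and ift56 by −0.08 (SE 0.15). Among further BBSome subunits, bbs5 differed by −0.63 (SE 0.31, below background), bbs1 by −0.31 (SE 0.21), bbs4 by 0.23 (SE 0.23) and ttc8 by 0.05 (SE 0.17). The transition zone gene mks1 differed by −0.16 (SE 0.15), the radial spoke gene rsph9 by −0.09 (SE 0.26) and rfx3 by 0.05 (SE 0.23). The remaining 15 targets, of the dnai, dnal4, rfx and ttc families, lay between −0.17 (SE 0.29) for ttc1 and 0.47 (SE 0.43) for dnal4a, and none was called.

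Cilia genes outside these families were read from written lists. Of 49 genes of ciliary transport and the ciliary base, 20 were on the array with 26 targets, and none of these reached an unadjusted p under 0.05. LZTFL1, a regulator of BBSome traffic, had 13.11, 13.37 and 12.91 in lead-exposed brains, against 13.54, 13.50 and 13.40 in control brains, a difference of −0.35 (SE 0.15, adjusted p = 0.707 in limma). Its groups did not overlap, whereas those of hspb11, an IFT-B subunit gene at −0.40 (SE 0.18), and of bbip1, a BBSome subunit gene at −0.33 (SE 0.16), did. Higher values belonged to both targets of MKKS, a chaperonin-like gene, at 0.36 (SE 0.17) and 0.14 (SE 0.14), and to both of INVS, whose protein marks a segment of the cilium above the base, at 0.30 (SE 0.13) and 0.43 (SE 0.30). Only the first INVS target had groups that did not overlap, and neither INVS target was above background on any array.

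Of 79 listed genes of motile cilia, 41 were on the array with 63 targets. These include the odad4 target, already described above as ttc25. Of the 63 targets 6, or 9.52%, reached an unadjusted p under 0.05, 5 lower and 1 higher, against 7.19% of all targets. Without overlap were 8 lower and 1 higher target, or 14.3%, against 13.1% of all targets. Of the 63, 41 were above background on no array, and among all such targets on the array 11.3% were called and 19.1% did not overlap. Of the 6 targets of hydin, a central pair protein gene, 3 had lower values without overlap, at −0.33 (SE 0.12), −0.34 (SE 0.13) and −0.31 (SE 0.14). The groups of the other three overlapped, at −0.10 (SE 0.15), 0.07 (SE 0.16) and 0.03 (SE 0.25). The target at −0.33 had 9.19, 9.0 and 9.20 in lead-exposed brains, against 9.43, 9.43 and 9.53 in control brains. In the 3 without overlap no array was above background, and all 6 share a gene. CCDC65, a dynein regulatory complex gene, had 3 targets, at −0.41 (SE 0.12, adjusted p = 0.607 in limma), −0.24 (SE 0.15) and 0.07 (SE 0.18), the last with overlapping groups. The spata18 targets differed by −0.49 (SE 0.17) and, with overlapping groups, −0.20 (SE 0.17). The adenylate kinase gene ak8 had 9.23, 9.71 and 9.14 in lead-exposed brains, against 10.24, 9.73 and 10.07 in control brains, a difference of −0.65 (SE 0.21, adjusted p = 0.618 in limma). In the authors' deposited table it has a log2 ratio of −0.651 and a p-value of 0.0486. The higher target was on the reverse strand of one named FOXN4, at 0.49 (SE 0.17). Its forward partner differed by −0.03 (SE 0.28) and the target named foxn4 by −0.14 (SE 0.31). Only 8 of the 63 targets were above background on all 6 arrays, and of the 6 called targets none was.

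Hedgehog signalling runs through the primary cilium, and 18 of 23 listed genes of that pathway had 26 targets. Of the 26 targets, 15 had higher and 11 had lower values in lead-exposed brains, with a median difference of 0.107. Groups did not overlap for 3 higher targets and 1 lower target, or 15.4%, against 13.1% of all targets. At an unadjusted p under 0.05 there were 2, or 7.69%, against 7.19% of all targets: gas1b, a co-receptor gene, at −0.98 (SE 0.37), and the ligand gene ihha at 0.39 (SE 0.16), both above background on no array. The values of gas1b were 8.46, 9.62 and 8.15 in lead-exposed brains, against 9.60, 9.69 and 9.89 in control brains. Lead-exposed brain 2 lay within the range of the controls and the other exposed brains well below it. One of the 5 targets of cdon, another co-receptor gene, likewise had lead-exposed brain 2 within the range of the controls and the other exposed brains below it, with 10.37, 11.58 and 10.62 in lead-exposed brains, against 11.63, 11.54 and 11.43 in control brains, a difference of −0.68 (SE 0.30). The other cdon targets were at −0.18 (SE 0.46) and −0.05 (SE 0.14), and the pair annotated with the homologue CDON at −0.02 (SE 0.28) and, on the reverse strand, 0.29 (SE 0.17). All 5 had overlapping groups. Besides ihha, higher values without overlap belonged to foxa2, at 0.33 (SE 0.15), and to a target of nkx2.2a, at 0.24 (SE 0.12). The lower target without overlap was gli2b, at −0.46 (SE 0.23).

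Brain markers were well detected, with 15 of 17 neuronal and 9 of 10 oligodendrocyte targets above background on all 6 arrays. Ependymal and radial glia markers, the class that includes the cells with motile cilia, had 16 targets of 7 genes, many of them named sox2. Of these targets 5 had higher and 11 had lower values in lead-exposed brains, with a median difference of −0.165 and none called. Their mean deviation was −0.07, 0.11 and −0.25 in lead-exposed brains, against −0.05, 0.23 and 0.02 in control brains. Of 10 microglia targets 2, or 20.0%, were called, both lower, against 7.19% of all targets (3.00% lower). The called targets were of apoeb, at −0.74 (SE 0.28), and of p2ry12, at −0.50 (SE 0.20) and above background on no array. Another apoeb target was at −0.13 (SE 0.26) and another P2RY12 target at 0.08 (SE 0.51). The microglia list deviated by 0.09, 0.23 and −0.62 in lead-exposed brains, against −0.07, 0.33 and 0.04 in control brains. Photoreceptor genes, which matter here because an outer segment is a cilium, were high in control brain 2. Over 21 targets of 13 photoreceptor genes the mean deviation was −0.35, −0.19 and −0.43 in lead-exposed brains, against −0.48, 1.96 and −0.51 in control brains. For example, opn1sw1, the ultraviolet opsin gene, had 10.12, 10.22 and 9.30 in lead-exposed brains, against 9.36, 14.76 and 8.99 in control brains. Without control brain 2 the cilia targets at an unadjusted p under 0.05 numbered 4, against 5.72% of all targets, and DNAI1 differed by −0.78 (adjusted p = 0.800 in limma). Markers of choroid plexus and meninges deviated by −0.90, 0.39 and −0.85 in lead-exposed brains, against 0.46, 0.71 and 0.20 in control brains, over 6 targets of 4 genes. Of the 6 targets, 4 had lower and 2 had higher values in lead-exposed brains. Called were 3, or 50.0%, all lower, against 7.19% of all targets (3.00% lower). The 3 called were the 2 targets of the transporter gene slc13a4, with the largest differences, −2.78 (SE 1.01) and −1.65 (SE 0.62), and rdh5, at −0.46 (SE 0.13). The 2 targets of CLIC6 were at 0.14 (SE 0.14) and 0.16 (SE 0.22). The first slc13a4 target had 8.04, 11.36 and 7.29 in lead-exposed brains, against 11.59, 12.43 and 11.01 in control brains. The part of these marker lists in the cilia values was not tested. In a list of sperm and testis genes 8 of 11 targets, and in the olfactory list both targets, were above background on no array.

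**Figure D5:**
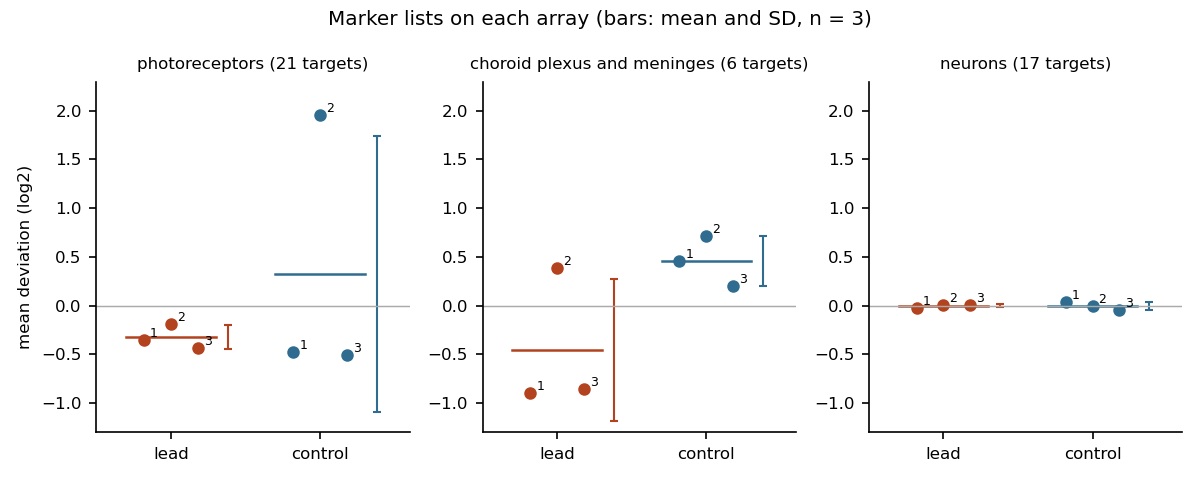
Mean deviation from the 6-array mean, in log2 units, of marker targets of photoreceptors, of choroid plexus and meninges, and of neurons, lead-exposed left and control right, with the mean and the SD (n = 3). Control brain 2 stands at 1.96 for photoreceptors, and lead-exposed brains 1 and 3 at −0.90 and −0.85 for choroid plexus and meninges.

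The count of called cilia targets, out of 76, changed when single fish were left out, and so did the share of all targets. Without lead-exposed brain 2 it was 7 in place of 2, while the share of all targets was 13.1% in place of 7.19%, and without lead-exposed brain 3 it was 1 (4.89% of all targets). Without control brain 3 it was 4 (7.95% of all targets). Among the cilia genes outside the families, 6 of 88 targets were called with all fish, against 7.19% of all targets. Without lead-exposed brain 2 there were 18 (13.1% of all targets) and without control brain 1 there were 3 (4.71% of all targets).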

How the data were processed

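The authors deposited 1 table per array of RMA-normalized intensity on a linear scale (RMA per the submitters' processing notes, version not stated). The 38489 values per array were converted to log2, without 1 control row. Probe intensity in the deposited series value table gave single-probe values and the background (95th percentile of the random-sequence probes). From the authors' deposited table of 180 altered probes, log2 ratios and p-values were copied; the test behind them is not known here. The 3 lead-exposed and 3 control arrays were set against each other with limma 3.58.1 (lmFit, eBayes; R 4.3.3), 2-sided, with no covariate or filter, and with Benjamini-Hochberg adjustment across the 38489 targets. The fit was tested on simulated data.

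Cilia targets were described by counts and medians beside those of all targets, with no test over the list. Members and lists were chosen with earlier results of these data known. Named targets were those with the smallest p in each direction (up to 10, and the first of each role), fixed genes of known role, and all other targets of the first kind. Of 32 fixed names, 8 had no target used here. Other targets were named after their values were seen, to account for each family. Among the members, 6 carried several homologue names. The values of 3 members are in the counts and are not reported here one by one. Alternatives were the series value table, array weights, the image name prefix as a block or alone, only the brighter targets, repeated quantile normalization, centring on random probes, the replicate number as a block and omission of each array.

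Whether fish of a group were raised in 1 tank is not given by the labels, and p-values then cover only the variation among these 6 fish. An exact permutation test of 3 against 3 cannot go below p = 0.1. The first scan positions held the controls and the last held the exposed arrays: scan position and exposure cannot be told apart.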

Additional observations from a re-analysis of the deposited data

How the results depend on the processing

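No cilia target passed the adjusted threshold under any alternative, and the median difference lay between −0.05 and 0.025, the highest value with the 2 arrays without the image name prefix. Percentages in brackets here are the shares of all targets. Cilia targets at an unadjusted p under 0.05, 2 in the main analysis (7.19%), numbered 4 with the series value table (7.61%) and 7 with array weights (15.4%). They were 0 of the 38 left when the dimmer targets were dropped (3.85%), and from 1 to 7 when 1 array was left out (4.71% to 13.1%). They numbered 5 (7.19%) with the 32 targets of the families named by accession or synonym added. With the brightest target of each of the 42 names they numbered 1 (7.19%). Among the 62 targets left without the spag and ttc genes not placed in a ciliary role group they numbered 1 (7.19%, these last 3 sets were chosen after seeing the data). With a fold in normalized intensity of at least 1.5 they were 1 in the main analysis (2.59%), 2 on the arrays with the image name prefix and 4 with array weights. They were 0 among the brighter targets and from 1 to 4 without 1 array. For these fold counts the share of all targets is available only for the main analysis, so they show nothing particular to cilia targets. Cilia targets whose groups do not overlap, 10 in the main analysis (13.1%), numbered 3 among the brighter targets and 6 with repeated quantile normalization. Keeping only the prefixed arrays gave 24. Leaving out 1 array gave from 12 to 21 (lowest without lead-exposed 3, highest without lead-exposed 2). With fewer arrays to stay apart, any target separates more easily. No share of all targets is available for these alternatives, so their counts cannot show whether cilia targets separated more often than others. The other cilia genes at an unadjusted p under 0.05, 6 of 88 in the main analysis (7.19%), were 0 on the arrays with the prefix (3.13%) and 14 with array weights (15.4%). They were 0 among the 23 brighter targets (3.85%) and from 3 to 18 without 1 array (4.71% to 13.1%). Apart from those of fewer arrays or targets, the cause was not tested.

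Whether the replicate numbers pair the fish is not known. Deviations of lead-exposed and control arrays of the same number correlated at −0.148, 0.142 and 0.263. Those of different numbers correlated at −0.376 to 0.357. With so few arrays in a group, such correlations cannot show whether fish were paired. The arrays without the image name prefix were those of lead-exposed brain 1 and control brain 1. With the replicate block, 3 cilia targets and 5 of the other cilia genes had an unadjusted p under 0.05, against 7.82% of all targets.

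Over 67 named differences and 907 alternative values, 810 kept their sign, and the largest difference that changed sign was 0.24 in size. With the series value table, signs turned for the third TTC17 target (0.09), foxj1b (0.03), ttc8 (−0.01), ift172 (−0.02), arl6 (0.03), ttc4 (0.03), RFX2 (−0.04), the third DNAH5 target (0.05), TTC13 (0.18) and LRRC6 (0.09). With array weights they turned for spag7 (0.07), TTC17 (0.03), RPGR (1 of 2) (0.06 and −0.02), ift57 (0.23), ift80 (0.01), LRRC6 (−0.01 and 0.04) and DNAH9 (−0.03). On the arrays with the prefix they turned for RPGR (1 of 2) (−0.15 and −0.21), foxj1b (0.00), ttc8 (−0.11), foxj1a (0.17), ift172 (−0.34), rsph9 (0.10), ift81 (−0.07) and BBS7 (0.12). Centring on random probes turned TTC17 (0.02), ift57 (0.01), BBS7 (0.02), TTC13 (0.01) and LRRC6 (0.02), and repeated quantile normalization BBS7 (0.00) and TTC13 (0.00).

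Without 1 array, ranges crossed or reached 0 for BBS7 (−0.07 to 0.10), DNAH9 (−0.04 to 0.10), DNAI2 (−0.01 to 0.06), LRRC6 (−0.07 to 0.18 and −0.06 to 0.08), rfx2 (−0.07 to 0.15 and −0.19 to 0.05 and −0.03 to 0.22 and −0.22 to 0.00 and −0.04 to 0.14), RFX3 (0.00 to 0.21), RPGR (1 of 2) (−0.28 to 0.06 and −0.30 to 0.02 and −0.09 to 0.29 and −0.05 to 0.17 and −0.15 to 0.24), RPGR (2 of 2) (−0.28 to 0.10), SPAG1 (−0.39 to 0.08), TTC13 (−0.07 to 0.04), TTC17 (−0.02 to 0.03), arl6 (−0.16 to 0.03), foxj1a (−0.68 to 0.06), foxj1b (−0.26 to 0.04), ift172 (−0.21 to 0.29), ift57 (−0.21 to 0.27), lrrc6l (−0.39 to 0.22), rfx3 (−0.20 to 0.26), rfx4 (−0.39 to 0.17), rsph9 (−0.32 to 0.12), spag7 (−0.14 to 0.12), ttc4 (−0.18 to 0.03), ttc8 (−0.08 to 0.16).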
